A study of Caenorhabditis elegans with 12 samples.

Results

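The response to the acs-20 mutation was examined in 6 of the 12 RNA sequencing libraries of this study, 3 from acs-20(tm3232) mutants and 3 from wild-type N2 worms. They were chosen by genotype label alone, with eat-2 intact in both groups. Each library was made from total RNA of whole Caenorhabditis elegans raised at 20 °C to late L4, the last larval stage. Nothing in the labels says that replicates came from separate cultures, so p-values measure only the spread between these samples. The acs-20 strain was DCL29 and the wild-type strain N2, with 1 strain per genotype, so other differences between these strains and the tm3232 allele cannot be told apart. The remaining 6 libraries, 3 from eat-2(ad465); acs-20(tm3232) double mutants (strain DCL33) and 3 from eat-2(ad465) mutants (strain DA465), were used in the fit. They also gave the same mutation's effect in other samples.

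The cuticle of C. elegans is a collagen and lipid layer made by the epidermis, and it keeps water, solutes and microbes out. The product of acs-20, an enzyme that takes up fatty acids and activates them with coenzyme A, is needed for this barrier. In worms whose cuticle is wounded, infected by the fungus Drechmeria coniospora or short of certain collagens, the epidermis turns on genes for small antimicrobial peptides of the nlp-29 cluster and the caenacin (cnc) family, and loss of furrow collagens is also known to turn on osmolyte and detoxification genes.

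Counts in genes came to 9517911, 9265492 and 7116623 in the acs-20 libraries, and to 10164893, 10762387 and 10842659 in the wild-type libraries. On the first principal component of these 6 libraries, with 41.5% of the variance, the acs-20 libraries lay at 19.9 to 30.1 and the wild-type libraries at -31.2 to -21.6. The second component (29.9%) divided the libraries within each group, with acs-20 replicate 2 at 28.7 beside wild-type replicate 2 at 27.4. Stage markers followed the same division. The summed level of the 6 vitellogenin (yolk protein) genes was 3523, 11342 and 3203 CPM (counts divided by library sizes that TMM factors adjust) in acs-20 replicates 1, 2 and 3, against 7917, 9689 and 3647 CPM in wild-type. None of these 6 genes was called. The mean log2 CPM of 10 adult cuticle markers was 8.24, 9.18 and 8.10 in acs-20 libraries, against 9.29, 9.33 and 8.725 in wild-type libraries. Thus 2 acs-20 libraries lay below every wild-type library on this score, and the part of stage in the results was not tested apart from a fit with the score as a covariate, in which 268 of the 318 called genes remained called. Ribosomal RNA took 2.20 to 2.60% of counts in genes in acs-20 libraries and 2.09 to 6.30% in wild-type libraries.

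The mutated gene itself did not separate the groups. Reads from acs-20 (WBGene00009218, chromosome IV) stood at 108, 93.5 and 109 CPM in acs-20 libraries, against 123, 89.7 and 134 CPM in wild-type libraries. The groups overlapped, with a log2 fold change of -0.15 (SE 0.135, adjusted p = 0.658 in edgeR's quasi-likelihood test), and a count over the whole gene does not check an allele that removes only part of it. Its closest paralog in name and role, the fatty acid transport protein gene acs-22, stood at 95.4, 101 and 86.9 CPM in acs-20 libraries, against 111, 93.4 and 133 CPM in wild-type libraries (-0.25, adjusted p = 0.396), and overlaps dylt-2 on the opposite strand. Reads from eat-2 were near 0 in both groups, at 4 counts in the 3 acs-20 libraries and 3 in the 3 wild-type libraries, so they do not check the background.

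The response was a small set of genes with large increases and a somewhat larger set with smaller decreases. Of 14390 tested genes 318 (2.21%) were called at an adjusted p under 0.05, 142 (0.987%) higher and 176 (1.22%) lower in acs-20. Among increases 53 were at least 4-fold and 27 at least 8-fold, with a median of 2.92-fold, and among decreases 31 and 8, with a median of 2.16-fold. The genes that rose had a median level of 13.4 CPM in acs-20 libraries, against 4.75 CPM in wild-type libraries, and 38 of them were under 1 CPM in wild-type. The genes that fell had a median level of 13.4 CPM in acs-20 libraries, against 29.4 CPM in wild-type libraries. The median log2 fold change over all tested genes was 0.01. The count was 161 (89 higher, 72 lower) without acs-20 replicate 3 and 179 (75 and 104) without wild-type replicate 1, and 130 of the 318 genes were called in all 19 alternative settings.

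**Figure D1:**
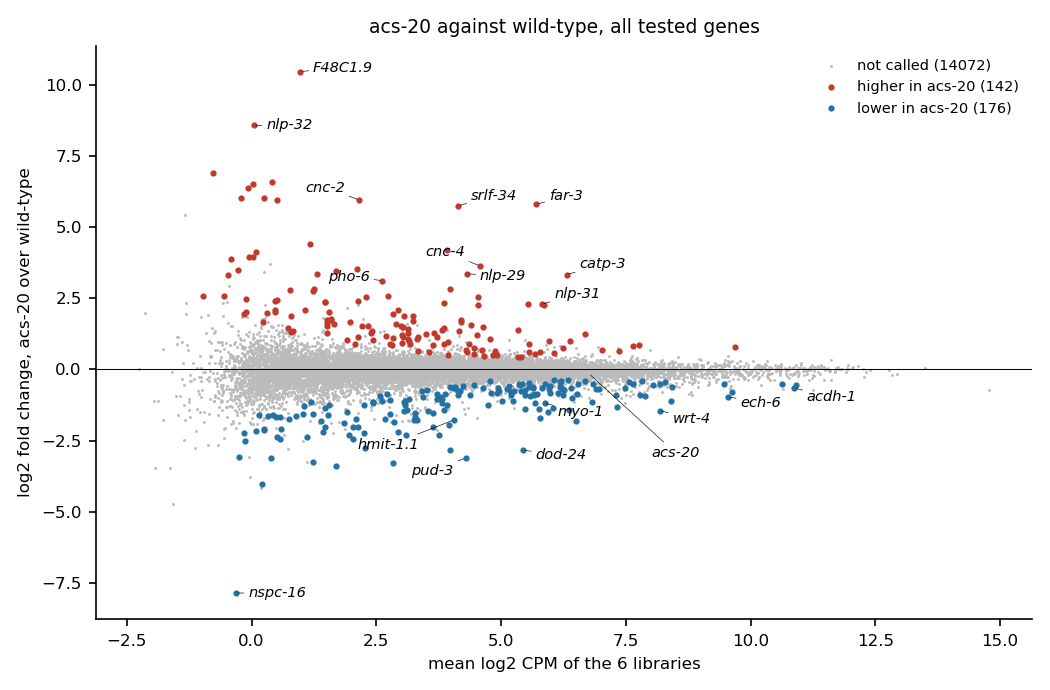
Log2 fold change of acs-20 over wild-type (vertical axis) against the mean log2 CPM of the 6 libraries (horizontal axis) for 14390 tested genes, with the 142 higher genes in red, the 176 lower genes in blue and the others in grey. The highest points are fitted values of genes with no counts in wild-type (F48C1.9, nlp-32), whose height is no bound; far-3, srlf-34 and catp-3 combine a high fold change with a high level, and the gene acs-20 lies near 0.

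Most of the tested antimicrobial peptide genes of the epidermis rose. In the list of 22 peptide genes, 17 were tested, 11 rose and 1 fell, against 2.21% called among all tested genes, and the median log2 fold change was 1.72. The namesake of the cluster, nlp-29 (WBGene00003767, chromosome V), stood at 58.0, 71.1 and 61.8 CPM in acs-20 libraries, against 4.87, 6.97 and 6.72 CPM in wild-type libraries, and its log2 fold change was 3.36 (SE 0.229, adjusted p = 4.96e-06). The lowest acs-20 library was thus at 58.0 CPM and the highest wild-type library at 6.97 CPM. In RNA of whole worms, more cells of a type and more RNA per cell cannot be told apart.

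The rise covered a block of neighbouring genes on chromosome V. In the order of the annotation, the tested genes str-83, nlp-34, nlp-31, nlp-30 and nlp-29 followed each other and all rose, the longest of 28 runs of neighbouring tested genes called in 1 direction. nlp-34 stood at 53.97, 79.7 and 59.5 CPM in acs-20 libraries, against 2.07, 4.24 and 4.21 CPM in wild-type libraries (4.19, SE 0.304). nlp-31 stood at 113.8, 128.6 and 132 CPM in acs-20 libraries, against 20.7, 24.3 and 31.5 CPM in wild-type libraries (2.29, SE 0.149), and nlp-30 had a log2 fold change of 2.31. The 4 peptide genes of the block thus lay between 53.97 and 132 CPM in acs-20 libraries, and between 2.07 and 31.5 CPM in wild-type libraries, where nlp-31 and nlp-30 were the higher pair. The chemoreceptor-family gene str-83, chosen after its values were seen, had 133 counts in the acs-20 libraries together, against 2 in the wild-type libraries, a ratio of 78.0 with a 95% counting interval of 21.2 to 651.

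The next 2 genes of the cluster gave 1 call. nlp-27 stood at 30.4, 41.7 and 30.6 CPM in acs-20 libraries, against 8.71, 15.2 and 7.12 CPM in wild-type libraries (1.72, adjusted p = 0.0106), and its call ended without wild-type replicate 1 (0.0617). nlp-28, close to 1 CPM in both groups, was not called (0.98, adjusted p = 0.341). Elsewhere, nlp-32 on chromosome III stood at 5.07, 5.77 and 3.93 CPM in acs-20 libraries and had no counts in the wild-type libraries, which makes it at least 50.4-fold higher against a floor of 3 counts over the group. nlp-25 rose less securely (1.54, adjusted p = 0.039), a call lost in 8 of 19 alternative settings, with adjusted p up to 0.149.

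Not every peptide gene of the list followed. nlp-24 ran the other way, with 182, 174 and 156 CPM in acs-20 libraries, against 313, 365 and 311 CPM in wild-type libraries (-0.95, adjusted p = 0.0152), all acs-20 values below all wild-type values. This call ended without acs-20 replicate 3 (0.0821), and the gene overlaps glb-15 on the opposite strand. nlp-33 was abundant in both groups, at 199.5, 226 and 206 CPM in acs-20 libraries, against 175, 179 and 197 CPM in wild-type libraries, and was not called (0.20, adjusted p = 0.537). nlp-26 was likewise not called (0.09).

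Among the caenacins, 4 of 6 tested genes rose. cnc-2 stood at 27.1, 42.6 and 24.5 CPM in acs-20 libraries, against 0.207, 0.377 and 0.903 CPM in wild-type libraries (5.95, SE 0.459, adjusted p = 1.75e-05). cnc-4 stood at 63.3, 128 and 69.6 CPM in acs-20 libraries, against 4.15, 9.04 and 7.72 CPM in wild-type libraries (3.63, SE 0.406). The first was close to silent in wild-type worms, and acs-20 replicate 2 was the highest library for both. cnc-10 (1.55) and cnc-9 (3.95) rose as well, whereas cnc-3 (0.58, adjusted p = 0.337) and cnc-8 (0.03) were not called. The 5 members that were too low to test, cnc-1, cnc-5, cnc-6, cnc-7 and cnc-11, had 0 to 3 counts in the acs-20 libraries together. Over the 19 alternative settings, 9 to 11 peptide genes were called higher.

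**Figure D2:**
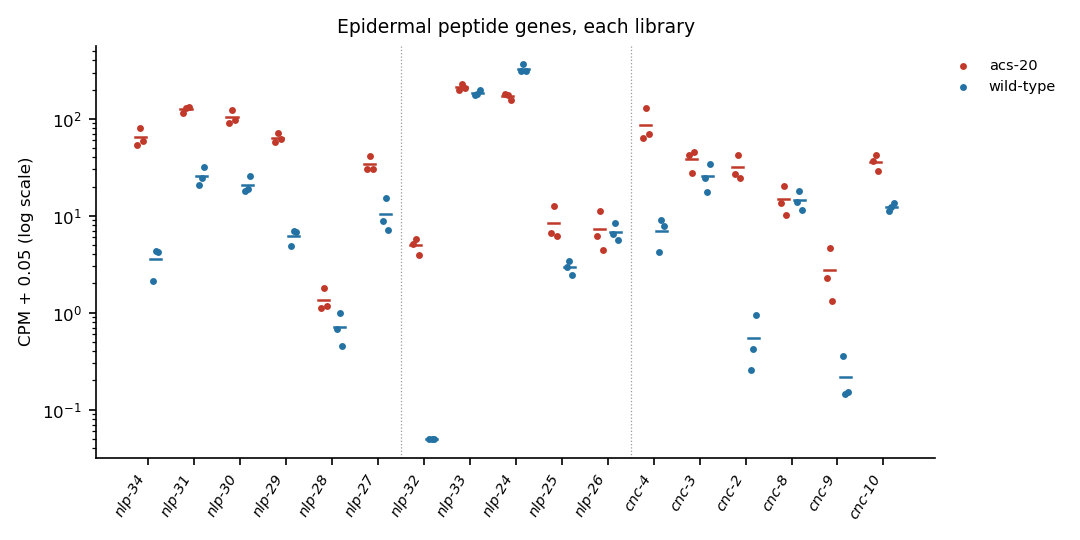
CPM plus 0.05 of the 17 tested epidermal peptide genes in each acs-20 library (red, left of each pair) and each wild-type library (blue, right) on a log axis, with bars at the means. Dotted lines set apart the nlp-29 cluster, the other nlp genes and the caenacins. The acs-20 libraries stand clear of the wild-type libraries for nlp-34, nlp-31, nlp-30, nlp-29, nlp-32, cnc-4 and cnc-2, and below them for nlp-24.

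Known regulators of these peptide genes were not called. None of 29 tested genes of this pathway passed the threshold in edgeR, against 6 at an unadjusted p under 0.05 and 1 called in DESeq2. Their log2 fold changes had a median of -0.08, and 23 of 29 were below 0, against 7086 of 14390 over all tested genes. The list holds both activators and genes whose loss turns on nlp-29. The transcription factor gene sta-2, which acts in the epidermis upstream of nlp-29, stood at 8.24, 6.97 and 6.73 CPM in acs-20 libraries, against 7.26, 6.40 and 9.53 CPM in wild-type libraries (-0.07, adjusted p = 0.898). The p38 kinase gene pmk-1 had a log2 fold change of -0.22 (adjusted p = 0.472), the adaptor gene tir-1 one of 0.39 (adjusted p = 0.279), and the receptor gene dcar-1 one of -0.04. Nearest to a call was dapk-1, a kinase gene whose mutants turn on nlp-29, at 84.5, 69.6 and 84.1 CPM in acs-20 libraries, against 107, 102 and 106 CPM in wild-type libraries (-0.40, adjusted p = 0.0593).

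Few structural genes of the cuticle were called. None of 6 tested furrow collagen genes was called, and their median log2 fold change was -0.07. dpy-7, a furrow collagen, stood at 261, 128 and 229.7 CPM in acs-20 libraries, against 195, 184 and 252 CPM in wild-type libraries (-0.03, adjusted p = 0.975), with acs-20 replicate 2 the lowest of the 6. None of the 15 tested collagens of annuli, alae and struts and none of 31 moulting genes was called. Unadjusted p-values in edgeR were under 0.05 for 0 of the furrow collagens, 1 of the 15 and 4 of the 31, and DESeq2 called 1 moulting gene, lower, and no collagen of these lists. Of 116 tested col genes 2 rose and none fell by the test, 1.72% against 2.21% called among all tested genes. Log2 fold changes were below 0 for 93 of the 116, and the median was -0.37. The col genes summed to 34642, 48437 and 32284 CPM in acs-20 libraries, against 47922, 49770 and 42587 CPM in wild-type libraries, so acs-20 replicates 1 and 3 were the low ones, as on the adult cuticle score. col-98 (0.86, adjusted p = 0.0206) and col-103 (0.82, adjusted p = 0.044) were the called ones, and their calls were lost in 6 and 13 of 19 settings. Of 51 tested cuticlin and apical matrix genes, cutl-5 fell (-2.52), 1.96% against 2.21% called among all tested genes. It was near the limit of detection, and its call was lost in 5 settings.

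Secreted and membrane proteins of the epidermal surface moved as single genes. Of 27 tested astacin metalloprotease genes 2 rose and none fell, against 0.987% called higher among all tested genes, with a median of -0.27. nas-33 stood at 9.93, 11.6 and 7.01 CPM in acs-20 libraries, against 1.97, 1.79 and 1.70 CPM in wild-type libraries (2.39, SE 0.277). nas-10 had 98 counts in the acs-20 libraries together, against 1 in wild-type, a ratio of 115 with a 95% counting interval of 20.2 to 4580. Both overlap a coding gene on the opposite strand.

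Hedgehog-related and patched-related genes, which nematodes use in moulting and trafficking to the cuticle, had called members in opposite directions. Of 36 tested hedgehog-related genes 2 fell and none rose, against 1.22% called lower among all tested genes, with a median of -0.07. wrt-8 stood at 7.50, 9.47 and 6.45 CPM in acs-20 libraries, against 35.98, 27.5 and 28.9 CPM in wild-type libraries (-1.97, SE 0.164, adjusted p = 1.68e-05). wrt-4 stood at 190.3, 159 and 184 CPM in acs-20 libraries, against 486, 368 and 598 CPM in wild-type libraries (-1.44, adjusted p = 0.00366). Neither gene's groups overlapped. Of 28 tested patched-related genes 2 rose and none fell, against 0.987% called higher among all tested genes, with a median of -0.01. ptr-22 stood at 7.604, 13.4 and 6.87 CPM in acs-20 libraries, against 0.311, 0.847 and 0.100 CPM in wild-type libraries (4.41, SE 0.482). The call of ptr-8 (1.22, adjusted p = 0.0493) was lost in 14 of 19 settings.

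No osmolyte gene was called higher. Of 17 tested genes of osmolyte synthesis and inositol transport 2 were called lower, against 1.22% called lower among all tested genes, with a median of -0.07. The inositol transporter gene hmit-1.1, known to be induced by salt, stood at 8.55, 11.2 and 6.87 CPM in acs-20 libraries, against 27.7, 30.97 and 33.4 CPM in wild-type libraries (-1.78, SE 0.214, adjusted p = 0.000399). The highest acs-20 library was thus far below the lowest wild-type library. gpdh-1, which makes glycerol under salt stress, stood at 3.91, 5.66 and 8.27 CPM in acs-20 libraries, against 8.71, 11.7 and 8.22 CPM in wild-type libraries (-0.70, adjusted p = 0.214), and the groups overlapped. osm-11, a secreted co-ligand of Notch whose loss turns on osmolyte genes, had 193, 189 and 216 CPM in acs-20 libraries, against 255, 262 and 267 CPM in wild-type libraries (-0.39, adjusted p = 0.0397), a call lost in 9 of 19 settings.

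Detoxification and stress genes had single called members in several families. None of 16 tested phase II targets of SKN-1 was called in edgeR or DESeq2 (2 had an unadjusted p under 0.05), with a median of -0.12, and the reporter gene gst-4 stood at 9.72, 9.69 and 9.26 CPM in acs-20 libraries, against 10.1, 14.6 and 10.6 CPM in wild-type libraries (-0.30, adjusted p = 0.453). The reporter of unfolded protein in the endoplasmic reticulum, hsp-4, had a log2 fold change of -0.04 (adjusted p = 0.913), and the mitochondrial chaperone gene hsp-6 one of 0.19 (adjusted p = 0.509). Of 49 tested chaperone genes hsp-12.3, which encodes a small heat shock protein, alone was called, with 1.37, 1.09 and 1.40 CPM in acs-20 libraries, against 5.599, 4.33 and 3.61 CPM in wild-type libraries (-1.80). This is 2.04% of the list, against 2.21% called among all tested genes. Of 56 tested UDP-glucuronosyltransferase genes, ugt-33 rose (2.53, with 8.98, 16.001 and 8.97 CPM in acs-20 libraries, against 1.76, 1.69 and 2.41 CPM in wild-type libraries), and ugt-13 (-1.25), ugt-26 (-0.67) and ugt-6 (-0.65) fell, each of these falls lost in 3 or more settings. These 4 are 7.14% of the family, against 2.21% called among all tested genes. Of 53 tested cytochrome P450 genes cyp-32A1 (1.35) and cyp-13A5 (1.67) rose and none fell, with calls lost in 4 and 8 settings. These 2 are 3.77% of the tested family, against 2.21% called among all tested genes. Of 30 tested glutathione S-transferase genes gst-33 rose (1.35), 3.33% against 2.21% called among all tested genes, and its call was lost in 11 settings. The iron storage gene ftn-1, which encodes ferritin, rose to 17.2, 17.6 and 12.3 CPM in acs-20 libraries, against 4.77, 2.92 and 5.31 CPM in wild-type libraries (1.87, SE 0.320, adjusted p = 0.00627).

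**Figure D3:**
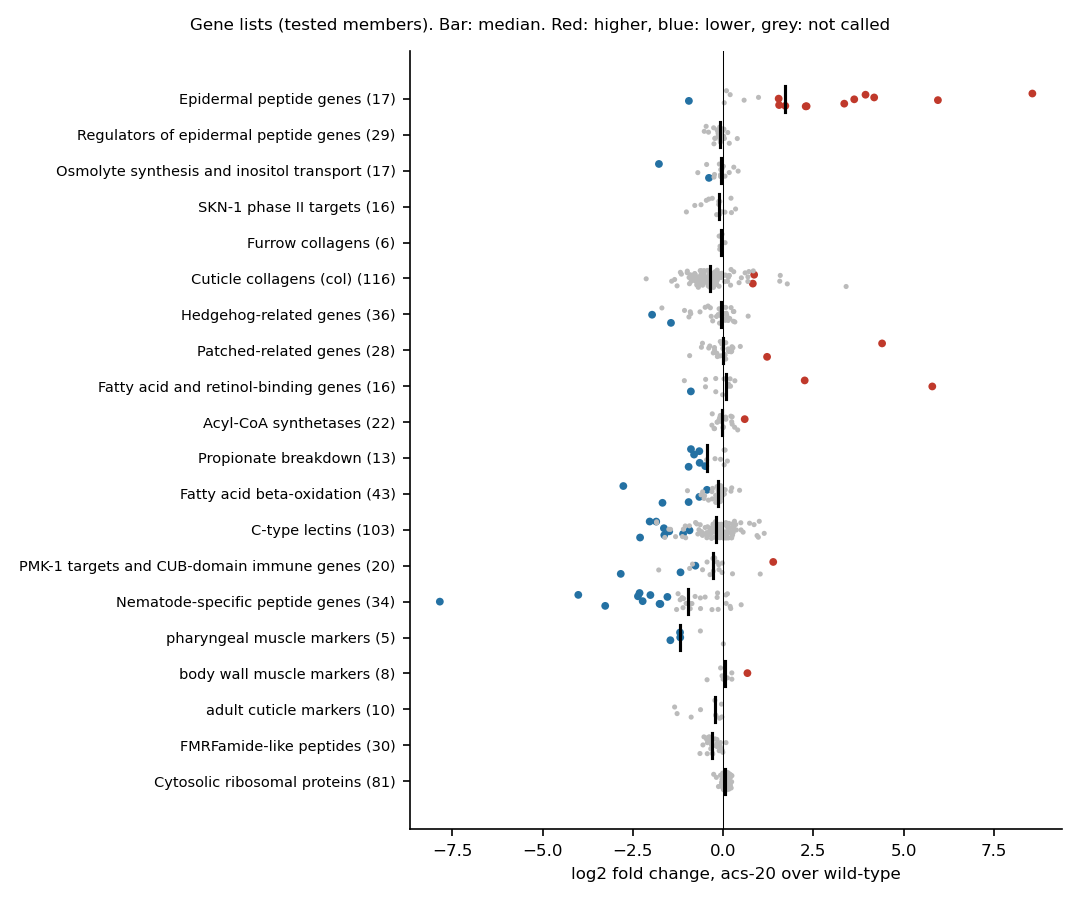
Log2 fold change of acs-20 over wild-type for the tested members of 20 gene lists (number tested in brackets), 1 point per gene, with called genes in red (higher) or blue (lower) and the list median as a black bar. The epidermal peptide genes reach far to the right, with a median of 1.72, while their 29 regulators lie around 0; the propionate genes (median -0.46), the nematode-specific peptides and the pharyngeal muscle markers lie to the left.

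Lipid-binding genes included the gene with the smallest p of the comparison. far-3 encodes a secreted fatty acid and retinol-binding protein. far-3 (WBGene00001387, chromosome V) stood at 378, 426 and 349 CPM in acs-20 libraries, against 6.95, 7.15 and 6.62 CPM in wild-type libraries, a log2 fold change of 5.80 (SE 0.171, adjusted p = 1.8e-10). Its wild-type libraries differed by less than 1 CPM, and every acs-20 library was at least 349 CPM. far-5, which lies beside it on the opposite strand, stood at 56.8, 52.0 and 43.5 CPM in acs-20 libraries, against 9.64, 8.66 and 13.54 CPM in wild-type libraries (2.26, SE 0.198). The exons of these 2 genes overlap and the strand setting of the counting is not known, so their reads cannot be told apart. far-8 fell, with 30.9, 35.05 and 32.1 CPM in acs-20 libraries, against 50.5, 61.4 and 70.4 CPM in wild-type libraries (-0.89, adjusted p = 0.00461). The other 13 of 16 tested genes of the far and lbp families were not called, so 18.75% were called, against 2.21% among all tested genes.

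Genes for fatty acid activation and desaturation had single called members. Of 22 tested acyl-CoA synthetase genes, the family of acs-20 itself, acs-11 rose (0.60, adjusted p = 0.0312), a call lost in 7 of 19 settings. This is 4.55% of the family, against 2.21% called among all tested genes. Of 25 tested desaturase and elongase genes fat-5, which encodes a palmitoyl-CoA desaturase, rose, 4% against 2.21% called among all tested genes. It stood at 20.8, 19.05 and 18.1 CPM in acs-20 libraries, against 8.09, 7.72 and 8.02 CPM in wild-type libraries (1.28, SE 0.174, adjusted p = 0.000962), and it overlaps twk-42 on the opposite strand, which was not called (0.19). The stearoyl-CoA desaturase genes fat-6 (0.11, adjusted p = 0.729) and fat-7 (-0.53, adjusted p = 0.174) were not called. Among 23 tested lipase and lipid droplet genes 2 fell and none rose, against 1.22% called lower among all tested genes. lips-6 stood at 2.64, 0.653 and 1.96 CPM in acs-20 libraries, against 9.02, 10.2 and 9.33 CPM in wild-type libraries (-2.44), and the lysosomal lipase gene lipl-3 had a log2 fold change of -2.15. In sphingolipid metabolism 1 of 26 tested genes was called, 3.85% against 2.21% called among all tested genes: gba-2, a glucocerebrosidase gene that overlaps gba-1, rose (2.78).

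The enzyme genes of the propionate shunt fell. Of 13 tested genes 6 were called lower and none higher, against 1.22% called lower among all tested genes, and the median log2 fold change was -0.46. Worms break down propionate by a vitamin B12-dependent route and by a shunt that does not need B12, and the 5 shunt enzymes were among the called genes. acdh-1, the acyl-CoA dehydrogenase that begins the shunt, stood at 1643, 1408 and 1454 CPM in acs-20 libraries, against 2414, 2112 and 2589 CPM in wild-type libraries (-0.66, SE 0.120, adjusted p = 0.00941). ech-6, the enoyl-CoA hydratase of the next step, stood at 577, 512 and 519.9 CPM in acs-20 libraries, against 1012, 955 and 1153 CPM in wild-type libraries (-0.96, SE 0.131, adjusted p = 0.00102). No acs-20 library reached the lowest wild-type library for either gene.

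Further along the shunt, the hydrolase gene hach-1 stood at 167, 162 and 154 CPM in acs-20 libraries, against 291, 273 and 331 CPM in wild-type libraries (-0.89, adjusted p = 0.000987). hphd-1, the 3-hydroxypropionate dehydrogenase gene, stood at 617, 585 and 600.5 CPM in acs-20 libraries, against 1025, 938 and 1185 CPM in wild-type libraries (-0.80, adjusted p = 0.00349). The last enzyme gene, alh-8, had the smallest change (-0.50, adjusted p = 0.0339), lost in 5 of 19 settings, and overlaps F13D12.8 on the opposite strand. The call of acdh-1 ended in 1 setting (0.0585), and the list had 3 called members without acs-20 replicate 3 and 3 to 7 over all settings.

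The B12-dependent enzymes were not called. The propionyl-CoA carboxylase subunit genes pcca-1 (0.03) and pccb-1 (0.12), the epimerase gene mce-1 (0.03) and the mutase gene mmcm-1 (-0.07) had adjusted p from 0.66 to 0.953, with overlapping groups. mmaa-1, which handles the B12 cofactor of the mutase, was called lower (-0.65, adjusted p = 0.0208), but not in 5 of 19 settings. nhr-68, a nuclear receptor gene that activates the shunt, stood at 67.4, 56.2 and 62.8 CPM in acs-20 libraries, against 83.8, 76.5 and 95.6 CPM in wild-type libraries (-0.46, adjusted p = 0.0793). Of the methionine cycle and the phosphatidylcholine route it feeds, metr-1 (methionine synthase, -0.53, adjusted p = 0.0401) and pmt-2 (a phosphoethanolamine methyltransferase, -0.54, adjusted p = 0.0499), both chosen after their values were seen, were lower near the threshold and lost in 8 and 9 settings.

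In fatty acid beta-oxidation as a whole 5 of 43 tested genes fell and none rose, against 1.22% called lower among all tested genes. Log2 fold changes were below 0 for 38 of the 43, against 7086 of 14390 over all tested genes, with a median of -0.15. Of the 5, acdh-1 and ech-6 are the shunt genes above. acdh-2, a paralog of acdh-1, stood at 1.80, 1.74 and 1.96 CPM in acs-20 libraries, against 8.61, 20.4 and 8.32 CPM in wild-type libraries (-2.76, adjusted p = 0.00106). The calls of kat-1 (-0.45) and ech-9 (-1.68) were lost in 7 and 11 of 19 settings. The list had 2 called members without acs-20 replicate 3 and 3 without acs-20 replicate 2.

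**Figure D4:**
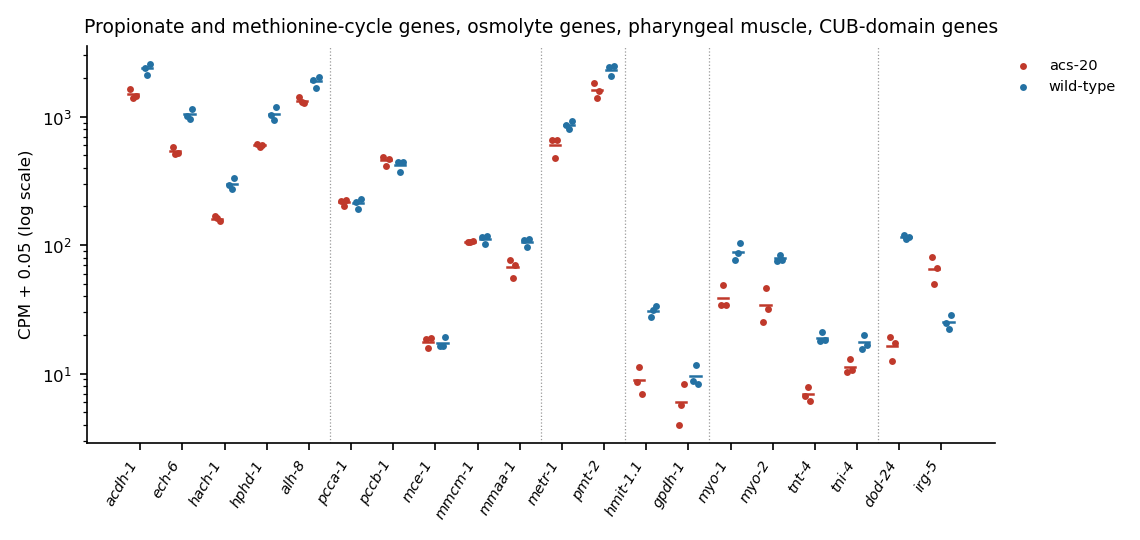
CPM plus 0.05 in each acs-20 library (red, left of each pair) and each wild-type library (blue, right) on a log axis, with bars at the means. From left to right the dotted lines separate propionate shunt genes, genes of the B12-dependent route, methionine-cycle and phosphatidylcholine genes, osmolyte genes, pharyngeal muscle genes and CUB-domain genes. The shunt genes are lower in every acs-20 library, pcca-1, pccb-1, mce-1 and mmcm-1 overlap, and irg-5 is the only gene shown that rose.

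Immune genes outside the epidermal peptides had called members in both directions. dod-24 (WBGene00007875), a CUB-domain gene of the intestinal immune response, stood at 19.1, 12.4 and 17.1 CPM in acs-20 libraries, against 119.03, 112 and 116 CPM in wild-type libraries (-2.84, SE 0.164, adjusted p = 6.1e-07). Its groups were far apart, with little spread in either. In its list of 20 tested genes C32H11.4 (-1.18) and dod-17 (-0.77) also fell, and irg-5 rose, with 80.9, 49.9 and 65.8 CPM in acs-20 libraries, against 24.6, 22.03 and 28.5 CPM in wild-type libraries (1.39, adjusted p = 0.0298). These 4 called genes are 20% of the list, against 2.21% called among all tested genes. Log2 fold changes were below 0 for 17 of the 20, with a median of -0.28. The calls of dod-17 and irg-5 were lost in 4 and 8 of 19 settings. irg-4 lay higher in each acs-20 library, at 58.7, 43.1 and 55.4 CPM, against 22.3, 18.1 and 36.7 CPM in wild-type libraries (1.03, adjusted p = 0.11), and was called in 3 settings.

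Among 103 tested C-type lectins 8 were called lower and none higher, against 1.22% called lower among all tested genes, with a median of -0.19. clec-230 stood at 3.27, 4.35 and 3.65 CPM in acs-20 libraries, against 20.8, 18.2 and 16.7 CPM in wild-type libraries (-2.30, SE 0.232, adjusted p = 7.31e-05). clec-47 stood at 43.9, 27.4 and 39.5 CPM in acs-20 libraries, against 116, 98.9 and 97.5 CPM in wild-type libraries (-1.49). clec-229 (-2.03) and clec-3 (-1.85) fell as well, while the calls of clec-5, clec-265, clec-242 and clec-245 were each lost in 4 or more settings. The list had 5 called members without acs-20 replicate 2, without acs-20 replicate 3 or without wild-type replicate 1, and 13 called lower at most. The fit with the stage score called 3 lectin genes higher beside 11 lower, and 1 was called higher without wild-type replicate 3. Of 32 tested lysozyme and saposin-like genes 2 rose and 2 fell, 12.5% against 2.21% called among all tested genes, with a median of 0.02. The lysozyme gene lys-6 fell (-1.13, adjusted p = 0.00819) in all 19 settings, and the fall of the saposin-like gene spp-4 (-0.42) was lost in 11 settings. The rise of the saposin-like gene spp-23 (0.62) was lost in 5 settings. The invertebrate-type lysozyme gene ilys-2 rose at low counts, with 10, 41 and 5 in acs-20 libraries, against 3, 1 and 0 in wild-type libraries, a call lost in 10 of 18 settings. pals-26, of the family that responds to viruses and microsporidia, rose (2.45), and the chitinase-like gene chil-23 fell (-2.45), each under 4 CPM.

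The nspc family of small peptides and the pud genes fell as blocks of neighbours. Of 34 tested nematode-specific peptide genes 10 fell and none rose, against 1.22% called lower among all tested genes, and all 10 were among the 13 tested nspc genes, whose median log2 fold change was -2.01. The call of nspc-3 was lost in 11 of 18 settings, and the other 9 kept theirs in every setting. nspc-16 had no counts in the acs-20 libraries and 91 in the wild-type libraries, at least 25.9-fold lower against a floor of 3 counts over the group. nspc-20 stood at 5.17, 5.01 and 5.89 CPM in acs-20 libraries, against 12.03, 21.8 and 20.4 CPM in wild-type libraries (-1.76, SE 0.242). nspc-18, nspc-19 and nspc-20 followed each other on chromosome X and all fell. The nspc genes are near-identical copies, and reads with more than 1 position were left out of the counts, so values of single members are uncertain.

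The 3 tested pud genes, neighbours on chromosome V, all fell, against 1.22% called lower among all tested genes. pud-3 stood at 6.76, 10.6 and 3.51 CPM in acs-20 libraries, against 57.8, 39.9 and 86.0 CPM in wild-type libraries (-3.11, SE 0.329, adjusted p = 0.000306). pud-4 (-3.27) and pud-1.2 (-1.39) did the same, with no overlap between groups. These genes too have near-identical copies.

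Contractile genes of the pharynx fell. Of 5 tested pharyngeal muscle markers 3 were called lower and none higher, against 1.22% called lower among all tested genes. The 6 markers of the list summed to 108, 153 and 115 CPM in acs-20 libraries, against 222, 244 and 248 CPM in wild-type libraries. myo-1, a myosin heavy chain gene of the pharynx, stood at 34.1, 48.9 and 34.1 CPM in acs-20 libraries, against 77.1, 86.98 and 103 CPM in wild-type libraries (-1.19, SE 0.158, adjusted p = 0.000842). myo-2, the other pharyngeal myosin heavy chain gene, stood at 25.2, 46.4 and 31.6 CPM in acs-20 libraries, against 75.8, 84.2 and 76.2 CPM in wild-type libraries (-1.19, SE 0.170). In both genes acs-20 replicate 2 was the highest of its group and still below every wild-type library. The troponin T gene tnt-4 stood at 6.65, 7.84 and 6.03 CPM in acs-20 libraries, against 17.7, 20.9 and 18.2 CPM in wild-type libraries (-1.46, SE 0.204). tni-4 (-0.63, adjusted p = 0.094) and pqn-21 (0.01, adjusted p = 0.987) were not called. These 3 calls held in all 19 settings.

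Markers of other tissues had single called members. None of 5 tested pharyngeal gland markers, 9 intestinal, 8 epidermal, 5 seam, 10 neuronal, 2 coelomocyte or 4 excretory markers was called in edgeR. DESeq2 called 1 pharyngeal gland and 1 excretory marker, both higher, and unadjusted p-values were under 0.05 for 0 to 2 markers per tissue. Of 3 tested glia markers fig-1 fell (-0.75, adjusted p = 0.0133), 33.3% against 2.21% called among all tested genes, and its call was lost in 2 settings. All 3 glia markers had log2 fold changes below 0, with a median of -0.49. Of 8 body wall muscle markers tni-1, a troponin I gene, rose, 12.5% against 2.21% called among all tested genes. It stood at 179, 155 and 157 CPM in acs-20 libraries, against 109, 105 and 94.3 CPM in wild-type libraries (0.67, adjusted p = 0.0027). The body wall myosin genes unc-54 (0.00, adjusted p = 0.999) and myo-3 (-0.03, adjusted p = 0.929) were not called. None of 9 germline, 43 sperm, 9 oocyte or 10 adult cuticle markers was called in edgeR or DESeq2, and none had an unadjusted p under 0.05. All 9 germline markers had log2 fold changes above 0, with a median of 0.29, and all 10 adult cuticle markers below 0, with a median of -0.22. Of the oocyte markers 7 of 9 lay above 0 (median 0.35), and of the sperm markers 36 of 43 lay below 0 (median -0.24). Over all tested genes 7304 of 14390 lay above 0.

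Several transporters and enzymes outside these lists' themes were among the clearest changes. catp-3, a cation-transporting ATPase gene, stood at 235.4, 280.1 and 262 CPM in acs-20 libraries, against 17.7, 37.2 and 22.2 CPM in wild-type libraries (3.33, SE 0.290, adjusted p = 7.31e-05). It was the most abundant gene after far-3 among those that rose at least 8-fold. The phosphatase-family gene pho-6 stood at 18.2, 17.6 and 15.99 CPM in acs-20 libraries, against 1.66, 2.35 and 1.91 CPM in wild-type libraries (3.12, SE 0.233), and overlaps gcy-7 on the opposite strand. srlf-34 stood at 101, 207 and 85.4 CPM in acs-20 libraries, against 1.66, 3.01 and 2.61 CPM in wild-type libraries (5.74, SE 0.517), with acs-20 replicate 2 the highest, and overlaps gcy-5. Neither gcy gene had enough counts to be tested.

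The amino acid transporter gene aat-8 rose to 16.7, 12.95 and 16.3 CPM in acs-20 libraries, against 3.01, 3.58 and 4.11 CPM in wild-type libraries (2.10). Among 179 tested nuclear hormone receptor genes 3 rose and none fell, 1.68% against 2.21% called among all tested genes. DESeq2 called 3 higher and 3 lower, the fit without a filter 4 and 4, the replicate block 3 and 4 and the stage score 2 and 3. nhr-87 had 76 counts in the acs-20 libraries together, against 1 in wild-type, a ratio of 89.1 with a 95% counting interval of 15.5 to 3570. nhr-11 rose as well (1.48, adjusted p = 0.00242). The cathepsin B-like protease gene cpr-1, one of the most abundant genes that rose, stood at 986, 1087 and 1198 CPM in acs-20 libraries, against 694, 530.4 and 662 CPM in wild-type libraries (0.79, adjusted p = 0.00242). In its list of 20 tested digestive and lysosomal protease genes it was the 1 that rose, while the aspartyl protease genes asp-14 (-1.11) and asp-12 (-0.87) fell, with calls lost in 5 and 11 settings. These 3 called genes are 15% of the list, against 2.21% called among all tested genes. The chloride channel gene clh-1 fell (-0.69, with 46.4, 51.7 and 48.7 CPM in acs-20 libraries, against 80.1, 85.4 and 71.2 CPM in wild-type libraries), and so did zig-3, a secreted immunoglobulin-domain gene, with 4.12, 3.48 and 2.80 CPM in acs-20 libraries, against 18.2, 13.4 and 16.7 CPM in wild-type libraries (-2.20).

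Called genes lay more often on chromosome V than elsewhere. There 57 of 2776 tested genes rose and 52 fell, 3.93% in all, against 1.1% to 2.54% on the other nuclear chromosomes. The nlp-29 block, the tested caenacins other than cnc-8, the far-3 pair, catp-3, ptr-22 and the pud genes are all there. This is a description, since neighbouring genes are not independent.

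The same mutation was compared in worms that also carried eat-2(ad465), with 6 other libraries for its fold changes. They entered the same fit, so both comparisons share 1 estimate of the spread between samples and are not independent. There 304 genes (2.11%) were called in the eat-2; acs-20 double mutant against eat-2, 195 (1.36%) higher and 109 (0.757%) lower. Of the 142 genes that rose in acs-20 against wild-type 78 also rose there, 54.9% of the 142 and 40.0% of the 195. Of the 176 that fell 48 also fell, 27.3% of the 176 and 44.0% of the 109. Without regard to a call, 13 of the 142 and 21 of the 176 had the opposite direction there, while 61.8% of all tested genes had the same direction in both comparisons.

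The peptide genes, the lipid-binding pair and the propionate shunt were changed in both backgrounds. nlp-29 stood at 82.3, 67.4 and 45.8 CPM in eat-2; acs-20 libraries, against 6.997, 6.98 and 10.2 CPM in eat-2 libraries (3.00, adjusted p = 1.15e-05), and 11 peptide genes rose there and none fell. far-3 stood at 504, 389 and 362 CPM in eat-2; acs-20 libraries, against 15.2, 13.49 and 18.3 CPM in eat-2 libraries (4.73). acdh-1 stood at 1095, 1095 and 1344 CPM in eat-2; acs-20 libraries, against 2088, 1602 and 1973 CPM in eat-2 libraries (-0.68, adjusted p = 0.008), beside a log2 fold change of -0.66 with eat-2 intact, and 5 of the 13 propionate genes fell. hmit-1.1 fell in both (-1.86 in eat-2; acs-20 against eat-2), from a far lower level in eat-2 worms, at 0.845, 0.748 and 1.47 CPM in eat-2; acs-20 libraries, against 4.58, 2.56 and 4.33 CPM in eat-2 libraries. Of the 17 tested osmolyte genes 1 was called higher and 1 lower in eat-2; acs-20 against eat-2, with a median of 0.04.

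For 27 genes (0.188%) the acs-20 effect was called different between the backgrounds, and 18 of these were among the 318. With 1 strain per genotype, other strain differences and the mutation cannot be told apart here either. dod-24, which fell in acs-20 against wild-type, stood at 103, 97.6 and 91.1 CPM in eat-2; acs-20 libraries, against 132, 89.9 and 120.2 CPM in eat-2 libraries (-0.23, adjusted p = 0.54), and the difference of the effects was 2.61 (SE 0.218, adjusted p = 8.64e-05). All 3 eat-2; acs-20 libraries were near the wild-type level of this gene. The pharyngeal muscle genes also differed. myo-2 stood at 66.1, 76.2 and 71.3 CPM in eat-2; acs-20 libraries, against 51.5, 53.7 and 44.4 CPM in eat-2 libraries (0.52, adjusted p = 0.155; difference 1.71, adjusted p = 0.00906). None of the 17 tested peptide genes, 13 propionate genes and 36 hedgehog-related genes was called for a difference, which does not show that their effects were equal. The number of differences ran from 8 without eat-2 replicate 3 to 150 without acs-20 replicate 2.

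**Figure D5:**
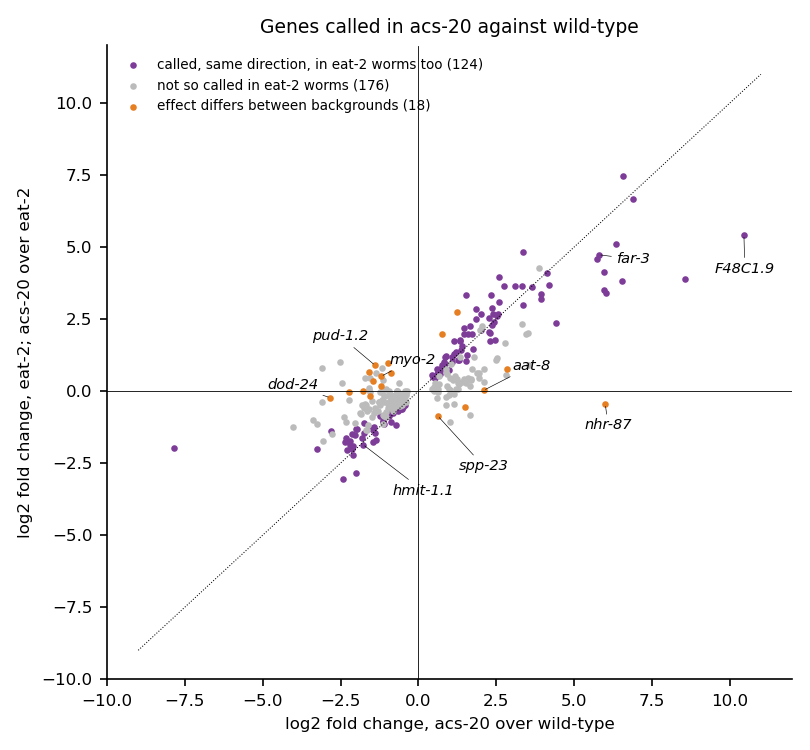
Log2 fold change of eat-2; acs-20 over eat-2 (vertical axis) against that of acs-20 over wild-type (horizontal axis) for the 318 called genes; the dotted line marks equal effects. Purple points (124) were called in the same direction in both without a called difference, orange points (18) had effects that differed between the backgrounds, and grey points (176) were neither; nhr-87, aat-8 and dod-24 lie near 0 on the vertical axis.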

How the data were processed

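The authors deposited raw read counts per gene, 1 table per sample, each ending in lines for reads outside genes, which were left out. These lines put 46.3 to 46.5% of reads in no feature in acs-20 libraries and 44.1 to 46.2% in wild-type libraries, and 5.21 to 5.86% and 5.97 to 9.99% at more than 1 position. HTSeq, TopHat2, DESeq2 and FastQC 0.11.5 appear in the submitters' processing notes, with no role stated. The sources used here do not give the genome build, annotation release or strand setting. An Ensembl annotation of WBcel235 supplied symbols and chromosomes and named 43720 of 46739 listed genes. No sequences or coordinates are printed. Without the strand setting, reads of genes that overlap on opposite strands cannot be told apart.

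The counts were tested with edgeR 4.0.16 in R 4.3.3: filterByExpr by genotype (minimum count 10, minimum total 15), TMM factors (0.921 to 1.1), 4 group means over 12 samples, 8 residual degrees of freedom, robust quasi-likelihood tests, and Benjamini-Hochberg adjustment over 14390 genes, called at an adjusted p under 0.05. Adjusted p-values are from these tests, and fold changes are log2. In counts simulated for acs-20 against wild-type, 50 of 50 genes changed 8-fold or 4-fold, 47 of 50 changed 2-fold and 13 of 50 changed 1.5-fold were recovered. The changed genes were drawn from those expected at more than 50 counts in an average library, and every gene had the same spread. Recovery for genes with fewer counts or a wider spread was not simulated. Counting intervals and floors cover counting error only.

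Gene lists, markers and named genes were chosen with earlier results of these data known and are described by counts and medians. Named by rule were acs-20, acs-22 and eat-2; among called genes with a mean log2 CPM of at least 1 and no overlap of libraries, the 15 highest, 15 lowest and 15 with the smallest p; up to 6 called members per list; a set of sentinels; and up to 10 genes with a called difference between backgrounds. Other named genes, among them nlp-24, nlp-25, nlp-27, cnc-9, cnc-10 and members that were not called, were chosen after their values were seen. Alternatives were DESeq2 1.42.0, RLE factors, no filter, a 2-fold minimum, the compared samples alone, a replicate block, rRNA genes left out, a stage score and leaving out each library. Counts within lists under these settings were added after seeing the data.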

Additional observations from a re-analysis of the deposited data

Results flagged for a closer look

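For 15 of the named genes, all of them called in acs-20 against wild-type, the mutation's effect on the eat-2 background (eat-2; acs-20 against eat-2) minus its effect with eat-2 intact (acs-20 against wild-type) passed edgeR's test of that difference. The differences are on the log2 scale, and their calls were compared over 18 alternative settings.

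The difference was 2.61 for dod-24 (adjusted p = 8.64e-05) and 1.37 for F55G11.2, both lower in acs-20 than in wild-type and neither called in eat-2; acs-20 against eat-2. F55G11.2 stood at 7.84, 7.02 and 6.21 CPM in eat-2; acs-20 libraries, against 8.69, 6.05 and 8.85 CPM in eat-2 libraries, which is the level of the acs-20 libraries (7.92, 6.64 and 6.87 CPM) and not of the wild-type libraries (20.6, 19.1 and 22.96 CPM). For the saposin-like gene spp-23 the difference was -1.49. This gene rose in acs-20 against wild-type (0.62, a call lost in 5 of 19 settings, with adjusted p up to 0.0795) and fell in eat-2; acs-20 against eat-2 (-0.87).

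The pharyngeal muscle genes myo-1, myo-2 and tnt-4 had differences of 1.37, 1.71 and 1.83. In eat-2; acs-20 against eat-2 their log2 fold changes were 0.18, 0.52 and 0.37, none of them called. The difference for pud-1.2 was 2.29, with 4.103, 3.56 and 4.17 CPM in eat-2; acs-20 libraries, against 2.29, 2.09 and 1.98 CPM in eat-2 libraries, far below either group with eat-2 intact. The choline kinase gene ckb-2 had a difference of 1.52.

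The receptor gene nhr-87 had the largest value, -6.46, a fitted figure against a wild-type group with 1 count. It stood at 3.26, 3.37 and 2.86 CPM in eat-2; acs-20 libraries, against 3.38, 4.19 and 5.37 CPM in eat-2 libraries, and wild-type was the genotype in which it was nearly absent. The transporter gene aat-8 (difference -2.07) stood at 2.29, 2.53 and 2.45 CPM in eat-2; acs-20 libraries, against 2.05, 2.33 and 2.73 CPM in eat-2 libraries, so the acs-20 single mutant was the genotype in which it was high. F22F7.7 (-2.07) and Y42G9A.3 (-2.04) also rose in acs-20 and were not called in eat-2; acs-20 against eat-2. F36A2.2 (1.77) and T19C9.8 (2.20) fell in acs-20 and had log2 fold changes near 0 there. F36A2.2 overlaps F36A2.3 on the opposite strand. C45B2.2 (1.51) rose in both, by 1.25 in acs-20 against wild-type and by 2.76 in eat-2; acs-20 against eat-2.

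The calls of difference for dod-24, F36A2.2, Y42G9A.3, nhr-87 and spp-23 held in all 18 settings. The others were lost in 1 (aat-8, myo-2) to 9 (F55G11.2) settings, with adjusted p up to 0.121. These values were flagged because the effects differ between backgrounds, and what sets them apart was not tested.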

How the results depend on the processing

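Called genes numbered 318 in acs-20 against wild-type. The number was 482 in DESeq2 (180 higher, 302 lower), 539 without a filter on low counts (170 and 369), 581 with the stage score as a covariate (225 and 356) and 199 with a 2-fold minimum (106 and 93). Leaving out 1 library gave 161 to 345. The replicate number as a block gave 450 (175 and 275). In eat-2; acs-20 against eat-2 the count was 304, against 542 in DESeq2, 579 without a filter, 653 with the replicate block and 198 with a 2-fold minimum, and 154 to 434 with 1 library left out. Differences between backgrounds numbered 27, against 125 in DESeq2, 99 without a filter, 56 with the replicate block and 54 with the stage score, and 8 to 150 with 1 library left out. The cause of these shifts was not tested.

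Same-numbered acs-20 and wild-type libraries had deviations that correlated at -0.052, 0.429 and 0.201. Replicates 2 and 3 of acs-20 correlated best with their own numbers, and replicate 1 with wild-type replicate 3 (0.386). These few correlations do not settle whether the numbers pair the samples, so the block is given as a value alone. Of 110 named genes that were called, 73 kept their call in all 19 settings, 37 lost it in at least 1 and none changed direction. Counts within lists stayed within 1.5 times in every setting for the epidermal peptides, the nematode-specific peptides, the pud genes and the pharyngeal muscle markers. With 3 samples a group, changes under 2-fold were recovered only in part in the simulated counts, where genes with few counts were left unchanged.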

Other observations

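Several genes that carry only a sequence name were close to absent in wild-type worms and clearly read in acs-20 mutants. They were chosen after their values were seen. F48C1.9 on chromosome I stood at 17.8, 19.9 and 17.2 CPM in acs-20 libraries and had no counts in the wild-type libraries. It was 186-fold higher against a floor of 3 counts over the group, with a 95% counting interval from 150 upward. Y49F6B.12 had 40 counts against none, 15.6-fold higher against the same floor, with a 95% counting interval from 12.1 upward. K01A6.4 had 108 counts in the acs-20 libraries together and 1 in the wild-type libraries, a ratio of 127 with a 95% counting interval of 22.3 to 5050. E02C12.10 had 200 and 2 counts, a ratio of 117 (32 to 975), and R05D8.9 had 183 and 3, a ratio of 71.5 (24.1 to 350). All 5 were called higher in eat-2; acs-20 against eat-2 as well, with adjusted p from 1.15e-06 to 0.00317 in edgeR's test.

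Of 5 tested fip genes, named for their induction by fungus, 2 rose, against 0.987% called higher among all tested genes. The fip family was chosen after its calls were seen, so setting these shares side by side is no test. fip-6 stood at 123, 148 and 112 CPM in acs-20 libraries, against 28.5, 21.3 and 29.9 CPM in wild-type libraries (2.27, SE 0.264, adjusted p = 0.000692). fip-5 stood at 30.9, 27.8 and 25.1 CPM in acs-20 libraries, against 12.6, 13.8 and 18.8 CPM in wild-type libraries (0.89), a call lost without acs-20 replicate 1 or wild-type replicate 1.

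Neuropeptide genes outside the nlp-29 cluster lay low without being called. Of 30 tested FMRFamide-like peptide genes 29 had log2 fold changes below 0, with a median of -0.30, and of 47 tested nlp genes outside the cluster 42 did, with a median of -0.35, against 7086 of 14390 over all tested genes. In eat-2; acs-20 against eat-2 the medians of the FMRFamide-like and nlp genes were 0.07 and -0.01. Neuronal markers had a median of -0.17 (8 of 10 below 0). The cytosolic ribosomal protein genes lay the other way by little, 70 of 81 above 0 with a median of 0.06. No member of these 4 lists was called in edgeR or DESeq2, and unadjusted p-values in edgeR were under 0.05 for 2, 10, 1 and 5 of them. None of 54 respiratory chain, 27 autophagy, 10 aquaporin, 24 glycolysis and 23 wound and clotting genes was called in edgeR either, with 2, 1, 3, 5 and 4 at an unadjusted p under 0.05 and 0, 0, 2, 1 and 1 called in DESeq2.

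The glutamate transporter gene eat-4 and the gene ZK512.7, which overlap on opposite strands, both fell. eat-4 stood at 4.33, 7.62 and 4.77 CPM in acs-20 libraries, against 15.1, 27.4 and 10.4 CPM in wild-type libraries (-1.66, adjusted p = 0.0208), and ZK512.7 had a log2 fold change of -2.31. These calls were lost in 4 and 6 of 19 settings, for eat-4 with the compared samples alone, with the stage score and without acs-20 replicate 1 or 3, with adjusted p up to 0.131. Their reads cannot be told apart.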
